A study of Mus musculus with 899 samples.

Results

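The plasma levels of both mature arms of miR-140, mmu-miR-140-3p and mmu-miR-140-5p (miR-140-3p and miR-140-5p from here on), were described in mice before and after whole thorax irradiation. These are 2 of the 1915 mature miRNA listed in the count table, and both are among the 483 that passed the filter on low counts. They were selected on the day 5 result in C57Bl/6 mice, which was known beforehand, so that comparison is given as a description without a test. The remaining time points and C3H mice were tested.

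Female and male C3H and C57Bl/6 mice received a single whole thorax irradiation or a sham treatment, and plasma was taken before treatment (PT), at day 2 (D2), at day 5 (D5) and monthly (M1 on). C3H mice were sampled to M4 and C57Bl/6 mice to M6. The libraries come from 196 mice, 64 irradiated and 32 sham C3H and 68 irradiated and 32 sham C57Bl/6, and fall into 32 groups of strain, treatment and time point. Sample titles also carry a code, G1 (353 libraries) or G3 (144) in C57Bl/6 and G2 (262) or G4 (140) in C3H mice. G3 and G4 end at M1, and no label says what the code stands for, so it is called the title code. Within each code some mice were bled at D2 and others at D5, and replicates are separate mice. Libraries held 206490 to 11814515 reads (median 1475030). The labels do not say which cells the plasma RNA came from, and fewer cells of a type cannot be told apart from less RNA released by each.

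Either strand of a miRNA hairpin can be loaded into an Argonaute protein and then bind target mRNA, mainly through bases 2 to 8 of the mature miRNA, the seed. miR-140 is best known from cartilage, where chondrocytes make it from an intron of Wwp2, a ubiquitin ligase gene, and mice without it have short bones and early osteoarthritis. It is not restricted to cartilage, and plasma holds miRNA from blood cells and many tissues.

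The hairpin gene Mir140 lies at chr8:107551244-107551313 on the plus strand in GRCm38.p6 by RefSeq. In the GENCODE annotation of GRCm38 it lies inside Wwp2, a gene on the same strand at chr8:107436365-107558595. It is intronic in 3 protein-coding transcripts of Wwp2, and 1 retained-intron transcript has an exon over it. Both arms come from this hairpin, shown with the 3p arm in capitals to place it, followed by the mature 3p arm (chr8:107551288-107551308) with its seed in capitals.
Mir140 hairpin: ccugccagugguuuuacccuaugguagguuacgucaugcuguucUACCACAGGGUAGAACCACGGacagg
miR-140-3p: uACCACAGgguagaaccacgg
Of the mature miRNA in that table, only miR-497b has the same bases 2 to 8 as miR-140-3p. It had 0 reads in 791 libraries and at most 14 reads in any, whereas miR-140-3p had at least 40 reads in every library.

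Both arms were moderately abundant in plasma. Levels are log2 CPM, the log2 of counts scaled to the normalized library size. The mean over all libraries was 8.94 for miR-140-3p and 8.73 for miR-140-5p, ranks 75 and 80 among the 483 miRNA. Reads per library ranged from 40 to 5853 (median 721) for miR-140-3p and from 111 to 3918 (median 626) for miR-140-5p. They held 0.0492% and 0.0439% of all reads. The SD within a group was 0.34 for miR-140-3p and 0.53 for miR-140-5p, and 0.29 and 0.36 within a group, title code and sex.

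**Figure D1:**
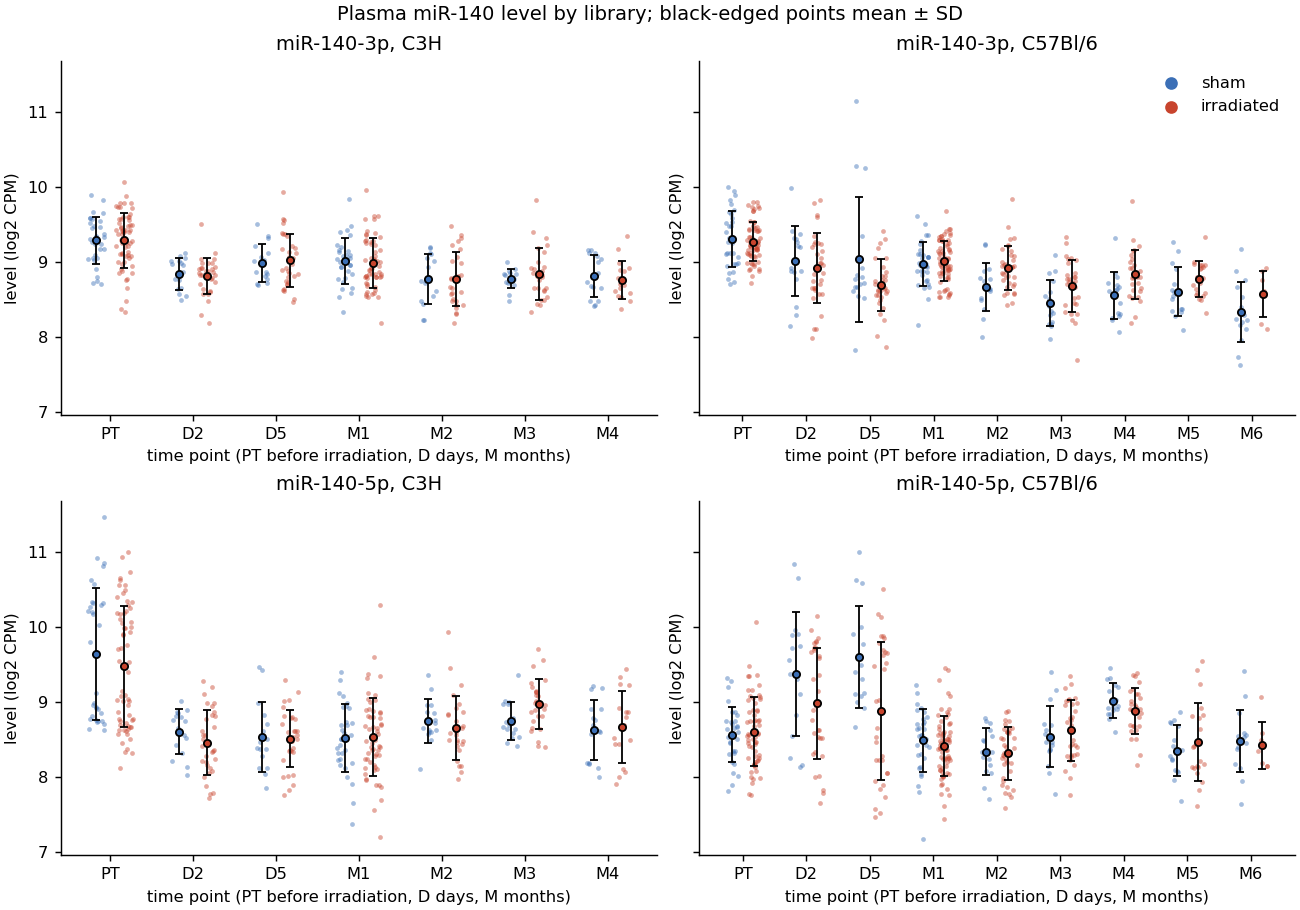
Level of each arm (log2 CPM) in every library by time point, sham in blue and irradiated in red, with mean ± SD of the group. In sham C57Bl/6 mice at D5, 3 libraries lie above 10 for both arms, and miR-140-5p spreads most before irradiation in C3H mice and at D2 and D5 in C57Bl/6 mice.

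In C57Bl/6 mice at D5, the comparison behind the choice of miR-140, both arms were lower in irradiated than in sham mice. miR-140-3p was between 7.86 and 9.41 (median 8.64) in 32 irradiated libraries and between 7.83 and 11.15 (median 8.74) in 16 sham libraries. miR-140-5p was between 7.46 and 10.50 (median 8.84) after irradiation and between 8.66 and 10.99 (median 9.45) in sham mice. The groups overlapped for both arms. The fitted log2 fold change was -0.58 (SE 0.10) for miR-140-3p and -0.61 (SE 0.16) for miR-140-5p, in a contrast where 14.1% of all tested miRNA were called.

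The sham group holds 4 libraries with the title code G3BFS, females of code G3, and 3 of them stood apart in log2 CPM. Their miR-140-3p levels were 10.28, 10.25 and 11.15, against 9.34 in the fourth and 7.83 to 8.92 in the other 12 sham libraries. Their miR-140-5p levels were 10.58, 10.63 and 10.99, against 8.99 in the fourth and 8.66 to 9.9997 in the other sham libraries. These 3 held the highest miR-140-3p levels of the 497 C57Bl/6 libraries. The same 4 mice had 9.47 to 9.89 of miR-140-3p before treatment and 8.86 to 9.10 at M1.

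Without the 4 libraries, the D5 log2 fold change of miR-140-3p was 0.07 (SE 0.12) and that of miR-140-5p -0.26 (SE 0.18), and 9.54% of miRNA were called. The sign of miR-140-3p thus turned. Split by title code and sex, the difference in mean miR-140-3p between irradiated (n = 8) and sham (n = 4) mice was -0.14 in G1 females, 0.08 in G1 males, -1.41 in G3 females and 0.08 in G3 males. For miR-140-5p it was 0.24, 0.22, -2.49 and -0.87. In G3 males, which include none of the 4 libraries, miR-140-5p was 7.89 to 8.65 in the 8 irradiated and 8.92 to 9.41 in the 4 sham libraries. These are few mice in 1 split of the comparison that chose miR-140. How many of all miRNA separate there was not counted, so the gap is not read as a result.

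Other measures of these libraries are given as a description. The 3 had 613538, 424138 and 419427 reads and TMM scaling factors of 0.656, 0.537 and 0.533, against 1406579 reads and 1.07 in the fourth. The other 12 sham libraries had 433920 to 1734792 reads and factors of 0.643 to 1.36. The 32 irradiated libraries had 206490 to 3012768 reads and factors of 0.524 to 1.23. On plain RPM, reads scaled to total reads with no such factor, miR-140-3p was 815, 653 and 1209 in the 3 libraries and 695 in the fourth. The 3 thus did not all exceed the fourth. In the same 4 mice it was 564 to 844 before treatment, and in the 8 irradiated G3 females 367 to 613. On this scale miR-140-5p was 1004, 849 and 1087 in the 3 libraries and 545 in the fourth, against 180 to 326 in the irradiated G3 females. Of the 5 red blood cell miRNA of the marker list, miR-486a-5p and miR-486b-5p had almost equal counts (medians of 37603 and 37723 reads). The 5 are thus not 5 separate measures. All 5 were detected in every library, with summed levels of 13.49 to 14.97 in the 4 libraries, 15.18 to 16.96 in the other sham and 14.57 to 16.92 in the irradiated libraries. The 6 leukocyte miRNA had 14.19 to 14.58, 13.94 to 14.86 and 13.14 to 14.22. The 4 platelet and endothelium miRNA had 15.35 to 15.78, 15.42 to 16.14 and 15.21 to 16.63. The part of depth, scaling and blood cell content in the D5 difference was not tested.

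**Figure D2:**
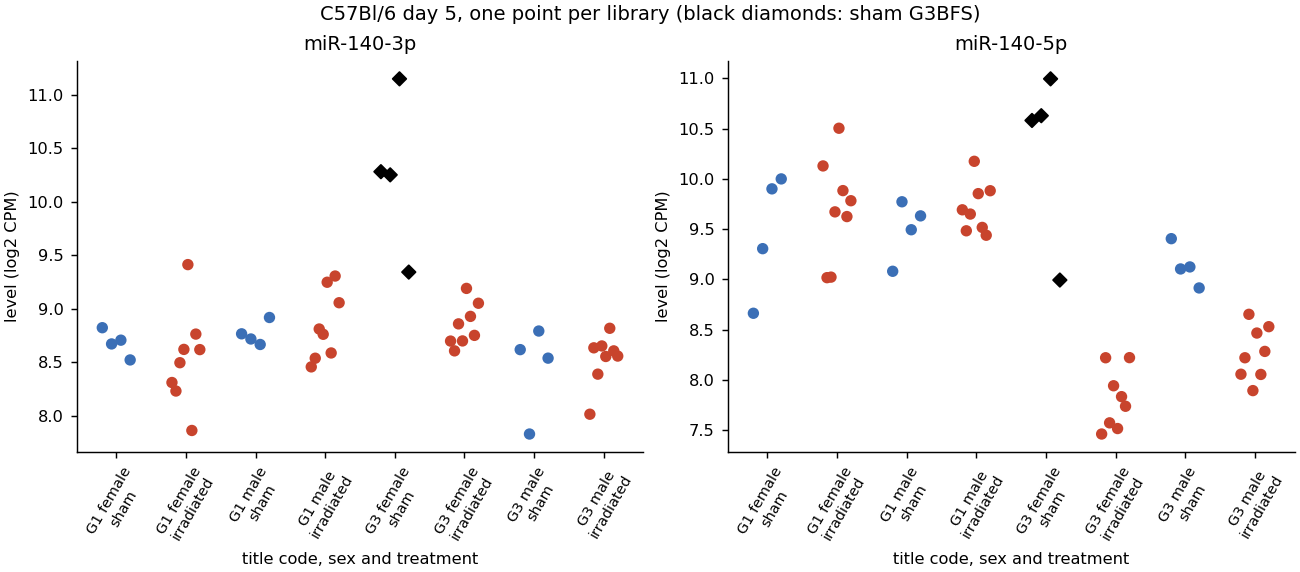
Level of each arm (log2 CPM) in the C57Bl/6 libraries at D5 by title code, sex and treatment, one point per library, with the 4 sham libraries G3BFS as black diamonds. 3 of these 4 lie above every other library for both arms. In code G3 the irradiated males lie below the sham males for miR-140-5p. How many of all miRNA separate there was not counted, so this gap is not read as a result.

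At the other time points neither arm passed an adjusted p of 0.05 in irradiated against sham mice by edgeR's quasi-likelihood test. This held for 7 time points in C3H and 8 in C57Bl/6 mice, PT included. The 95% intervals of the fold change ran from 0.81 at the lowest to 1.42 at the highest for miR-140-3p and from 0.59 to 1.48 for miR-140-5p (the D5 comparison of C57Bl/6 mice aside), and changes inside these limits are not excluded. In C3H mice at D5, the time point of the C57Bl/6 difference, miR-140-3p had a log2 fold change of 0.05 (SE 0.11, edgeR adjusted p = 0.963) and miR-140-5p -0.05 (SE 0.16, edgeR adjusted p = 0.963).

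Across all miRNA the share called in C3H mice was 0% at PT, 4.97% at D2, 3.11% at D5, 3.31% at M1, 0.621% at M2, 2.07% at M3 and 0.414% at M4. In C57Bl/6 mice it was 0% at PT, 6.63% at D2, 3.73% at M1, 3.31% at M2, 1.66% at M3, 4.76% at M4, 3.52% at M5 and 0.414% at M6. Before treatment, where no miRNA was called by edgeR, 32 in C3H and 25 in C57Bl/6 mice had an unadjusted p under 0.05.

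The nearest to the threshold was miR-140-5p in C57Bl/6 mice at D2. It was between 7.66 and 10.15 (median 8.92) in irradiated and between 8.13 and 10.84 (median 9.47) in sham mice, with overlapping groups. Its log2 fold change was -0.44 (SE 0.16, edgeR adjusted p = 0.0709). With sex and title code as added terms in edgeR it was -0.45 (adjusted p = 0.0376), and with a mean for each title code within a group -0.47 (adjusted p = 0.00266). The D2 value passed under only these 2 of 17 alternatives, and over the 17 it ran from -0.71 to -0.13. By title code and sex the difference was 0.09 in G1 females, -0.74 in G1 males, -0.40 in G3 females and -0.52 in G3 males.

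From M2 to M6 the fitted miR-140-3p values in C57Bl/6 mice were all above 0 without passing the threshold. They were 0.25 at M2 (edgeR adjusted p = 0.22), 0.23 at M3 (adjusted p = 0.387), 0.29 at M4 (SE 0.11, adjusted p = 0.104), 0.15 at M5 (adjusted p = 0.545) and 0.22 at M6 (adjusted p = 0.665). The M4 value passed with DESeq2 (0.34, adjusted p = 0.0339) and with DESeq2 size factors in edgeR (0.34, adjusted p = 0.0493). It also passed in edgeR without the 4 G3BFS libraries (0.33, adjusted p = 0.0434), although these are D5 libraries. In all, the M4 value passed under 3 of 15 alternatives, and over the 15 it ran from 0.20 to 0.40. The number of irradiated mice fell from 36 at M2 to 8 at M6.

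The irradiation effect was not shown to differ between strains. An edgeR F test over D2 and M1 to M4, with D5 left out, gave an adjusted p of 0.709 for miR-140-3p and 0.943 for miR-140-5p, and 2.69% of miRNA were called.

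**Figure D3:**
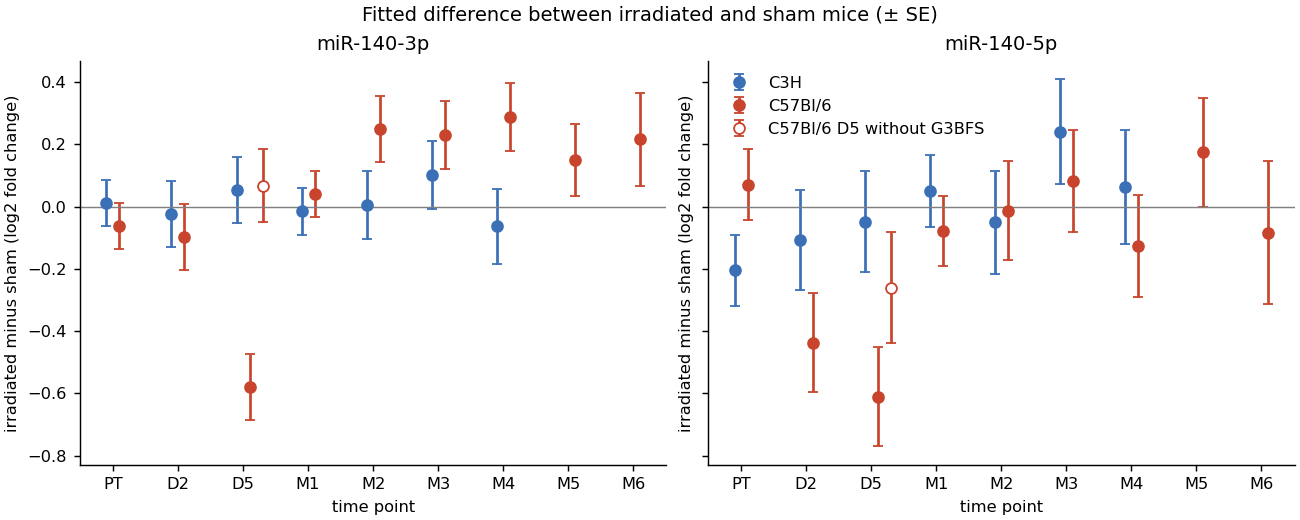
Fitted log2 fold change of irradiated against sham mice (± SE) by time point, C3H in blue and C57Bl/6 in red, with the C57Bl/6 value at D5 without the 4 G3BFS libraries as an open point. For miR-140-3p the D5 value moves from -0.58 to 0.07 when they are left out.

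In sham mice the arms followed different courses. miR-140-3p was lower than before treatment at 6 time points of 6 in C3H mice, with edgeR log2 fold changes from -0.28 at M1 (adjusted p = 0.00699) to -0.54 at M3 (adjusted p = 1.36e-05). It passed at 3 of them on total counts and at 3 with quantile-normalized log2 RPM, and at D2 it was -0.03 on total counts. The D5 value passed under 6 of 14 alternatives, and those at M2, M3 and M4 under 12 of 12. Within G2 the value was -0.34 at D2 (adjusted p = 0.0558), -0.18 at D5 (adjusted p = 0.354) and -0.17 at M1 (adjusted p = 0.237) by edgeR. Within G4 it was -0.42 (adjusted p = 0.121), -0.32 (adjusted p = 0.391) and -0.38 (adjusted p = 0.0466) by edgeR. In C57Bl/6 mice miR-140-3p was lower at M1 to M6, from -0.36 at M1 to -0.97 at M6 (edgeR adjusted p = 2.45e-15), and -0.27 at D2 (edgeR adjusted p = 0.0527). The D2 value passed under 13 of 14 alternatives, and the number of time points passed was 7 in place of 6 under all 12 alternatives computed for it. At D5, given without a test, it was -0.05, and -0.75 without the 4 G3BFS libraries. At M6 sham libraries ranged from 7.63 to 9.18 (median 8.27), against 8.70 to 9.997 (median 9.28) at PT. These values mix age, repeated bleeding and the making of the libraries, which cannot be told apart. From M2 on they also mix title codes, since sham libraries of G2 or G1 alone are set against both codes at PT.

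The background of these sham comparisons was high. In C3H mice 25.7% of miRNA were called at D2, 17.4% at D5, 32.1% at M1, 19.5% at M2, 24.4% at M3 and 38.5% at M4. For C57Bl/6 mice it was 21.5% at D2, 24.8% at M1, 16.1% at M2, 32.3% at M3, 29.6% at M4, 27.7% at M5 and 33.3% at M6. On total counts the median of all miRNA shifted against TMM by 0.42 in C3H mice at D2 and by 0.26 in C57Bl/6 mice at M6. The number of red blood cell miRNA called lower in sham mice varied between time points. In C3H mice it was 4 of 5 at D2 and M4, 3 at M1 and M3, 2 at M2 and 1 at D5. In C57Bl/6 mice it was 4 of 5 at M3, M4 and M6, 3 at M1 and M5, 1 at D2 and 0 at M2. At M6 in C57Bl/6 mice the median log2 fold change of the red blood cell miRNA was -0.996, against 0.02 over all miRNA. Their part was not tested.

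miR-140-5p in sham C3H mice was lower than at PT at 6 time points of 6, from -1.13 at M2 to -1.32 at M1 (edgeR adjusted p = 2.29e-19). These values mix title codes, since sham C3H libraries from M2 on are of code G2 alone and are set against both codes at PT, so their order over time is not read. Within G2 it was -1.73 at D2, -1.81 at D5 and -2.28 at M1, and a mean for each title code gave -1.74 at M2, -1.74 at M3 and -1.83 at M4. Within G4 it was -0.20 (adjusted p = 0.645), -0.23 (adjusted p = 0.646) and 0.03 (adjusted p = 0.943) by edgeR. In C57Bl/6 sham mice miR-140-5p was higher at D2, 0.98 (edgeR adjusted p = 7.82e-08), with 1.18 in G1 and 0.50 in G3, and at M4, 0.43 (edgeR adjusted p = 0.0284). From M2 on only G1 libraries are compared with both codes at PT, and with sex and title code as added terms in edgeR the M4 value was 0.19 (adjusted p = 0.373) while M2 and M5 passed at -0.47 (adjusted p = 0.0167) and -0.45 (adjusted p = 0.0164). At D5, given without a test, miR-140-5p was 1.15 in C57Bl/6 sham mice, with 0.63 in G1 and 1.61 in G3, the code of the 4 G3BFS libraries.

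The title codes stood apart for miR-140-5p, over irradiated and sham libraries together and as a description. Before treatment it was 10.29 ± 0.40 (SD, n = 48) in G2 and 8.77 ± 0.24 (SD, n = 48) in G4, and 48 of 48 G2 libraries were above the highest G4 library. How many of all miRNA separate the codes in this way was not counted. At M1 the order was the opposite, 8.21 ± 0.35 (SD, n = 46) in G2 and 8.86 ± 0.40 (SD, n = 44) in G4. Among C57Bl/6 mice it was 9.72 ± 0.46 (SD, n = 24) in G1 and 8.50 ± 0.53 (SD, n = 24) in G3 at D2, and 8.44 and 8.42 at M1. For miR-140-3p the differences (G1 minus G3, G2 minus G4) at PT, D2, D5 and M1 were between -0.35 and -0.04. Red blood cell miRNA had a summed median of 16.88 in G2 and 16.15 in G4 at PT. In C57Bl/6 mice at PT this median was 16.56 in G1 and 15.80 in G3, where mean miR-140-5p was 8.79 and 8.39. The part of the red blood cell miRNA was not tested.

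**Figure D4:**
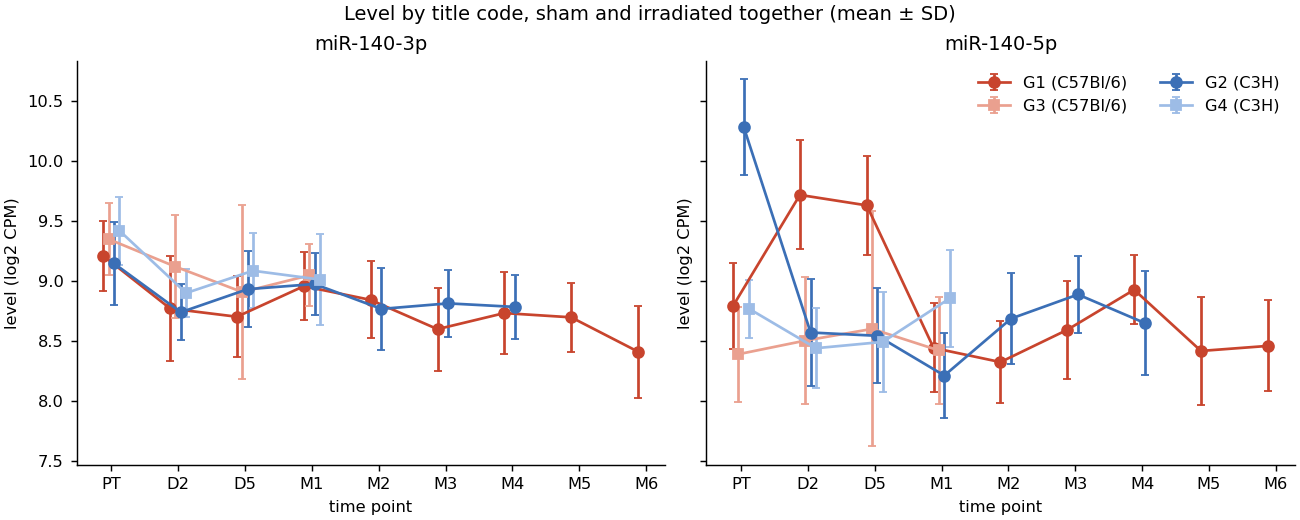
Mean level (log2 CPM, ± SD) of each arm by time point and title code, irradiated and sham libraries together. miR-140-5p is highest in G2 before treatment (10.29) and in G1 at D2 (9.72) and D5 (9.63), while the codes lie close together for miR-140-3p.

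Before treatment, strain and title code cannot be told apart, since each code belongs to 1 strain. miR-140-3p differed between C57Bl/6 and C3H mice by 0.00 (SE 0.05, edgeR adjusted p = 0.997), and by 0.13 on total counts (adjusted p = 0.0459). miR-140-5p was lower in C57Bl/6 mice by a log2 fold change of -1.15 (SE 0.08, edgeR adjusted p = 1.4e-38), with -1.48 for G1 against G2 and -0.40 for G3 against G4 (edgeR adjusted p = 0.000124). In this comparison 50.7% of miRNA were called. All 5 red blood cell miRNA, the almost equal miR-486a-5p and miR-486b-5p among them, were called lower in C57Bl/6 mice too. Their median was -0.61 against -0.02 over all miRNA, and their part was not tested. Females had less miR-140-3p than males in C3H mice, -0.30 (SE 0.07, edgeR adjusted p = 0.000115), a call lost on total counts (-0.18, adjusted p = 0.123). The value in C57Bl/6 mice was -0.04 (edgeR adjusted p = 0.683). Of 292 miRNA tested between the sexes, 24% passed in C3H mice, as did 20.5% in C57Bl/6 mice. For miR-140-5p the sex difference was -0.10 (edgeR adjusted p = 0.649) in C3H and -0.22 (edgeR adjusted p = 0.283) in C57Bl/6 mice, where it passed on total counts (-0.37, adjusted p = 0.0129) and in G3 alone (-0.25, adjusted p = 0.0482). By the study's methods the females were of an older age range than the males, so sex and age cannot be told apart in these comparisons.

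The ratio of the arms within a library does not depend on library scaling. The log2 ratio of 3p to 5p reads, with 0.5 added to each, ranged from -2.18 to 1.99 (median 0.29), and 3p exceeded 5p in 619 libraries. Of the 15 irradiated and sham comparisons tested, 1 passed, C57Bl/6 at M4. There the irradiated mice averaged -0.05 ± 0.44 (SD, n = 29) and the sham mice -0.47 ± 0.42 (SD, n = 16), a difference of 0.42 by a two-sided permutation test (p = 0.00306, adjusted p = 0.0459), with overlapping groups. In the remaining tests the adjusted p from permutation was between 0.4998 and 0.764. At C57Bl/6 D5, which was not tested, the ratio was -0.18 in irradiated and -0.56 in sham mice.

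Before treatment the ratio was 0.42 in G1, 0.96 in G3, -1.14 in G2 and 0.65 in G4 on average, and 3p exceeded 5p in 0 of 48 G2 libraries and 46 of 48 G4 libraries. C57Bl/6 exceeded C3H mice by 0.93, by 1.56 for G1 against G2 and by 0.31 for G3 against G4 (permutation p = 2e-05, 2e-05 and 0.00018, two-sided, the first 2 being the smallest that the permutations can give).

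**Figure D5:**
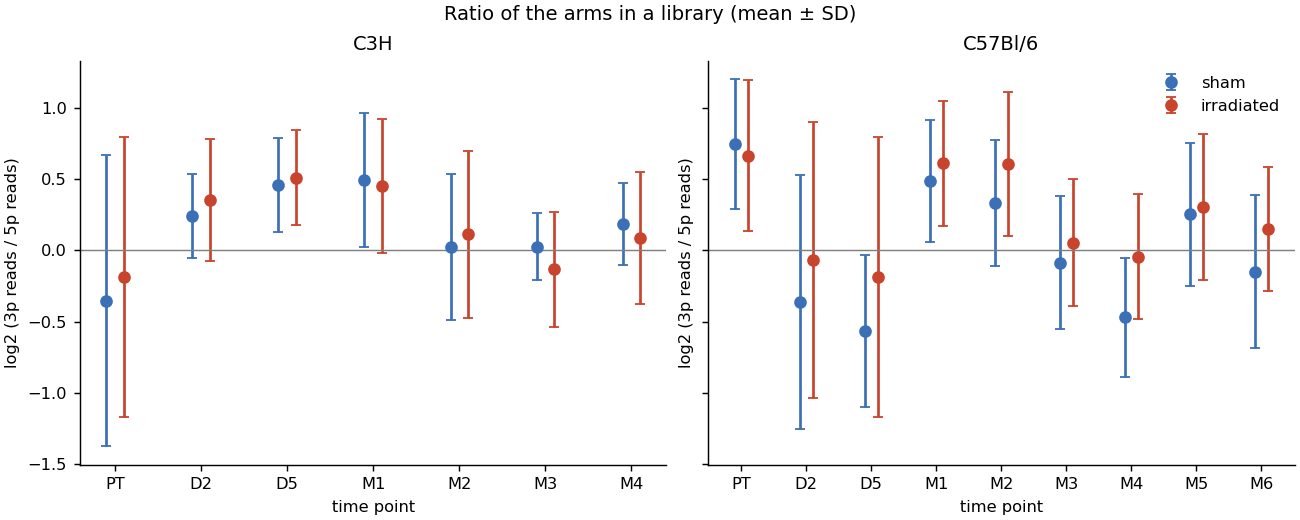
Log2 ratio of 3p to 5p reads (mean ± SD of libraries) by time point for sham (blue) and irradiated (red) mice. At M4 in C57Bl/6 mice the means are -0.47 and -0.05.

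The arms were loosely related. Over 48 mice of a title code before treatment, Pearson's r between them was 0.32 in G1 (adjusted permutation p = 0.106), 0.15 in G3 (0.409), 0.12 in G2 (0.435) and 0.26 in G4 (0.158), adjusted over 4 codes. Unadjusted permutation p values were 0.0264, 0.307, 0.435 and 0.0789. Spearman's rho was 0.41 (adjusted permutation p = 0.0157), 0.14 (0.455), 0.03 (0.865) and 0.19 (0.411). Without the 2 mice farthest from the median of miR-140-3p, r was 0.41, 0.11, 0.13 and 0.21.

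Over all libraries, with group means subtracted, the miRNA most like miR-140-3p among 134 abundant ones were miR-148b-3p (r = 0.56), miR-93-5p (0.54), miR-20a-5p (0.51), miR-25-3p (0.50) and miR-30e-5p (0.49). For miR-140-5p they were miR-17-5p (0.81), miR-18a-5p (0.75), miR-423-5p (0.62), miR-26b-5p (0.60) and miR-1198-5p (0.59). These libraries share scaling, title codes and mice, so the values are descriptions. With title code and sex subtracted too, miR-17-5p and miR-18a-5p stayed first for miR-140-5p, at 0.69 and 0.67. The arms themselves had an r of 0.10, and 0.30 with title code and sex subtracted.

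Other miRNA known from cartilage and mesenchyme were listed for comparison. Of 8, 6 were tested, and the arms of miR-675, made from the H19 transcript, were not, with 0 reads in 787 and 871 libraries. miR-455-5p, which chondrocytes make from an intron of a collagen gene, averaged 6.20, and miR-455-3p had 0 reads in 543 libraries. In irradiated against sham C3H mice 0 of 6 were called at each time point, where 0% to 4.97% of all miRNA were called. The list's median log2 fold change was between -0.27 and -0.03, against -0.07 to 0.00 over all miRNA. After irradiation of C57Bl/6 mice 1 of 6 was lower at D2 (miR-199a-5p, -0.99, edgeR adjusted p = 0.00632), M1 (miR-214-3p, -0.58, edgeR adjusted p = 0.0362), M4 (miR-199a-5p, -0.92, edgeR adjusted p = 0.0153) and M5 (miR-199a-3p, -0.59, edgeR adjusted p = 0.0325). Of all miRNA 6.63% were called at D2, 3.73% at M1, 4.76% at M4 and 3.52% at M5. At D5, given without a test, miR-199a-5p was -0.94. The list's median in C57Bl/6 mice was -0.49 at D2, -0.46 at M1, -0.47 at M2 and -0.49 at M5, against -0.06, -0.05, 0.01 and -0.07 over all miRNA, and between -0.14 and 0.00 at M3, M4 and M6. Before treatment it was already -0.19, against -0.02 over all miRNA, with 0 of 6 called. At D5, given without a test, the list's median was -0.22. In sham C57Bl/6 mice miR-455-5p was lower than at PT from M1 (-0.58, edgeR adjusted p = 0.00153) to M6 (-1.61, edgeR adjusted p = 6.82e-13). Most other members were higher at M1, where 4 of 6 were called higher and 1 lower, against 24.8% of all miRNA called. At M6 1 of 6 was called higher and 1 lower, against 33.3% of all miRNA called. The list's median there was -0.33, against 0.02 over all miRNA. miR-455-3p was called lower at M4 (-2.55, edgeR adjusted p = 0.00697). miR-199a-5p was called higher at D2 and at M1 to M6, from 0.76 at M5 to 1.89 at M4, and miR-199a-3p at D2 and at M1 to M5, from 0.54 at M5 to 1.07 at M1. miR-214-5p was called higher at D2, M1, M2 and M4, and miR-214-3p at M1 and M2.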

How the data were processed

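Plasma small RNA libraries from 196 mice were analysed, with group, sex, mouse and title code read from the labels. Per the study's methods, hemolyzed plasma and runs with few reads were left out, libraries were made with a QIAseq miRNA kit, and reads were trimmed and aligned to mouse miRNA (mm10 in the submitters' processing notes) with Illumina BaseSpace. The authors deposited raw read counts per mature miRNA, without normalization. The use of molecular identifiers is not given in the sources used here, so reads are not taken to be independent molecules.

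The members and lists were chosen with earlier results of these data known. Counts were scaled by TMM and filtered with filterByExpr in edgeR 4.0.16 (R 4.3.3). A quasi-likelihood model with 1 mean for each of 32 groups (867 residual degrees of freedom) was tested with Benjamini-Hochberg adjustment within a contrast over 483 miRNA. The sex comparison used PT libraries and 292 miRNA. Log2 CPM used a prior count of 2. A call is an adjusted p under 0.05. The procedure was tested on simulated data. Arm ratios and correlations were tested with 100000 permutations in SciPy 1.17.1 (all regroupings at C57Bl/6 M6, n = 8). Correlations were planned per strain and are given per title code, because the codes form separate clusters.

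Named miRNA are the members, the fixed lists, miRNA with the seed of a member and the 5 most correlated with each member (mean log2 CPM of at least 6).

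Mouse numbers come from the labels and pair samples over time. Over 1962 pairs of libraries of 1 mouse, deviations from group means correlated at 0.12 for miR-140-3p and 0.0051 for miR-140-5p. Alternatives were DESeq2 1.42.0 and its size factors, total counts, limma-voom (limma 3.58.1), quantile-normalized log2 RPM, other filters, sex and title code terms, single sexes or codes, the mouse as a block, and leaving out the 4 G3BFS libraries. Fits of single codes for the sham, strain and sex comparisons and a mean per title code were chosen after seeing the data.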

Additional observations from a re-analysis of the deposited data

How the results depend on the processing

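Of 1035 values computed under alternatives, 966 kept their side of the threshold, or for values without a test their size within 1 SD. The 966 also include counts of sham time points that moved little, as from 6 to 7 for miR-140-3p in C57Bl/6 mice. Among the 966, 51 that passed under neither analysis changed sign. At C57Bl/6 D5 the miR-140-3p value turned from -0.58 to 0.0673 without the 4 G3BFS libraries, 0.0289 in males and 0.0907 in codes G1 and G2 alone, while miR-140-5p turned to 0.28 in G1 and G2 alone and was -2.04 in G3 and G4 alone. Without these 4 libraries the sham value of miR-140-3p at C57Bl/6 D5 against PT moved from -0.05 to -0.75. It was 0.0179 with no filter, 0.21 with only miRNA of at least 100 reads on average, and 0.37 in G3 and G4 alone. The miR-140-5p value of sham C3H mice at M1 turned to 0.0257 in G4.

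The miR-140-5p value at C57Bl/6 D2 passed under 2 of 17 alternatives. It was -0.45 with sex and code terms and -0.47 with a mean per code. The miR-140-3p value at C57Bl/6 M4 passed under 3 of 15 alternatives. It was 0.34 with DESeq2 or its size factors and 0.33 without the 4 libraries. The strain difference of miR-140-3p passed at 0.13 on total counts and at 0.14 on quantile-normalized RPM. C3H sham time points with a miR-140-3p call numbered 3 under those same 2 scalings. C57Bl/6 sham time points with a miR-140-5p call numbered 1 with quantile-normalized RPM, no filter, the filter of 100 reads, without the 4 libraries or with the mouse as a fixed block.

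With the mouse as a replicate block (limma-voom, estimated correlation), miR-140-5p at C57Bl/6 D2 was -0.41 (adjusted p = 0.105) and miR-140-3p at C57Bl/6 D5 was -0.28, or -0.37 with a fixed block. The sham value of miR-140-3p at C57Bl/6 D2 passed at -0.30 (adjusted p = 0.0205) with that block and at -0.34 (adjusted p = 0.00548) with the fixed block, and that of miR-140-5p at M4 was lost with the fixed block (0.31, adjusted p = 0.14). Neither block changed another call. The causes of these changes were not tested.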
